A study of Sus scrofa domesticus with 150 samples.

Results

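The genes of the mitochondrial respiratory chain were followed through the healing of full-thickness skin wounds in pigs. Members were every row of the deposited gene table whose symbol named a nuclear-encoded subunit of complex I (NDUFA, NDUFB, NDUFC, NDUFS and NDUFV genes), complex II (SDHA to SDHD), complex III (UQCR genes) or complex IV (COX5 to COX8 genes, since the symbol pattern leaves out COX4I1 and COX4I2). A row without a symbol was read from its protein match. The rule found 78 rows with 62 symbols among 30461 genes, and 56 of these rows, with 55 symbols, reached 10 counts in at least 3 samples.

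RNA was measured in 150 samples from 6 female Yorkshire-mix pigs. Each animal received 12 full-thickness wounds of 2 cm on day 0, and the 6 day 0 samples were the excised skin itself. Each of the 72 wounds was biopsied on 1 of 14 days, with 1 sample of 3.5 mm from its edge and 1 from its center. Days 1 to 7, 9, 11 and 13 held 6 samples per location, and days 15, 16, 19 and 21 held 3, which gave 29 states of day and location. The wounds of all animals were covered with the same dressing, and the study's methods name topical antibiotic at the biopsy sites and no other treatment. Any single day held 3 of the 6 animals, so a day and its animals cannot be told apart. For this reason days were grouped into windows (1 to 3, 4 to 7, 9 to 13, and 15 to 21), each of which held all 6 animals. The shares were not even: 3 animals gave 12 of the 18 samples per location on days 1 to 3, and the other 3 gave 12 of 18 on days 9 to 13, so a change between these windows cannot be told apart in part from a difference between animals. Replicate numbers ran by animal and wound within a state and name different animals on different days.

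Complexes I and II take electrons from NADH and succinate, complex III passes them to cytochrome c, and complex IV hands them to oxygen. Complexes I, III and IV pump protons as they do so, and ATP synthase uses the resulting gradient. Complex II is also an enzyme of the tricarboxylic acid cycle. In healthy skin, respiration is low compared with muscle, and repair brings in cell types that differ in how far they depend on it. Since whole biopsies were sequenced, fewer cells of a type and less RNA per cell cannot be told apart.

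The library totals ran from 13133379 to 24895572 counts, with a median of 17643938. Skeletal muscle RNA was uneven between samples. ACTA1, the actin of skeletal muscle, lay between 0 and 0.719 CPM (reads of a gene scaled to a common library total) in day 0 skin and above 1000 CPM in 8 wound samples. The mean over the 15 tested rows of skeletal muscle markers was above that of every day 0 sample in 23 samples, 15 of them center and 8 edge. The labelled locations were checked with keratinocyte markers, which average 11.2 ± 0.29 on the log2(1 + CPM) scale in day 0 skin (SD, n = 6). Between days 1 and 13, 1 edge sample lay below 8 and 4 center samples above it. The edge sample was replicate 6 of day 3, at 2.18, and the center samples were replicate 5 of day 1 (9.94), replicate 4 of day 3 (10.7), replicate 1 of day 11 (9.70) and replicate 2 of day 13 (8.08). Both samples of a wound were alike in replicate 4 of day 3, with keratinocyte means of 10.8 at the edge and 10.7 in the center, and in replicate 6 of day 3, with 2.18 and 0.680. The counts of their edge and center libraries differed by a chi-square of 5.15 and 18.4 per gene, against a median of 323 over the 72 wounds, so these wounds hold little contrast between locations. The counts below are given without these samples, and without the 23 with muscle RNA, wherever that changed a count by more than 1.5 times.

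Of the 56 measured rows, 32 belonged to complex I, 4 to complex II, 7 to complex III and 13 to complex IV. NDUFA4 was counted with complex IV because its protein match in the table was a cytochrome c oxidase subunit. The 22 unmeasured rows never exceeded 12 counts, and 6 of them were at 0 in every sample. For 7 symbols (COX6A1, COX6C, COX7B2, COX8C, NDUFA1, NDUFS8 and UQCRB) no row was measured. The other unmeasured rows each shared their symbol with a measured row. Whether reads of the 7 symbols were counted elsewhere was not tested, so a missing row is not read as a missing transcript. The rows lie on unplaced contigs of an assembly that is not named in the sources used here, so no chromosome positions are given.

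Levels between genes were compared per length, on the deposited FPKM scale. COX8A (ENSSSCG00025076117), a small subunit of complex IV, had the highest mean of all members at 269 FPKM over the 150 samples. NDUFA4 (ENSSSCG00025022914) followed at 147 FPKM and COX7A2 (ENSSSCG00025018366) at 110 FPKM. In complex I the highest were NDUFB4 (ENSSSCG00025027520) at 80.3 FPKM and NDUFB7 (ENSSSCG00025039494) at 76.8 FPKM, both accessory subunits of the membrane arm. In complex III UQCR10 (ENSSSCG00025051385) had 72.2 FPKM and UQCRQ (ENSSSCG00025053269) 69.7 FPKM, and in complex II SDHD (ENSSSCG00025044948) had 53.2 FPKM and SDHB (ENSSSCG00025004020) 50.0 FPKM. SDHA had 32.4 FPKM and SDHC 11.5 FPKM. These values depend on the annotated row lengths, 4760 bases for SDHA and 8401 for SDHC against 1209 for SDHB and 1643 for SDHD. In mean CPM the order differed, with SDHA at 158, SDHC at 98.6, SDHD at 89.4 and SDHB at 62.0.

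The mean of the 56 rows, on the log2(1 + CPM) scale, was highest on the first days after wounding, and its daily means lay within or below the range of the day 0 samples from day 11 on. Day 0 skin had 5.00 ± 0.079 (SD, n = 6), with samples between 4.87 and 5.10. In the center the mean was 5.52 ± 0.073 on day 1 and 5.60 ± 0.045 on day 2 (n = 6 each), where the lowest sample was at 5.52. It was still 5.47 ± 0.16 on day 5, reached 5.18 ± 0.18 on day 7 and 5.00 ± 0.12 on day 11, and stood at 4.75 ± 0.25 on day 21 (n = 3). The edge had 5.51 ± 0.20 on day 1, 5.38 ± 0.060 on day 5 and 4.93 ± 0.12 on day 11 (n = 6 each), and 4.72 ± 0.095 on day 19 (n = 3). All wound samples of days 1 to 5 lay above all day 0 samples at both locations.

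**Figure D1:**
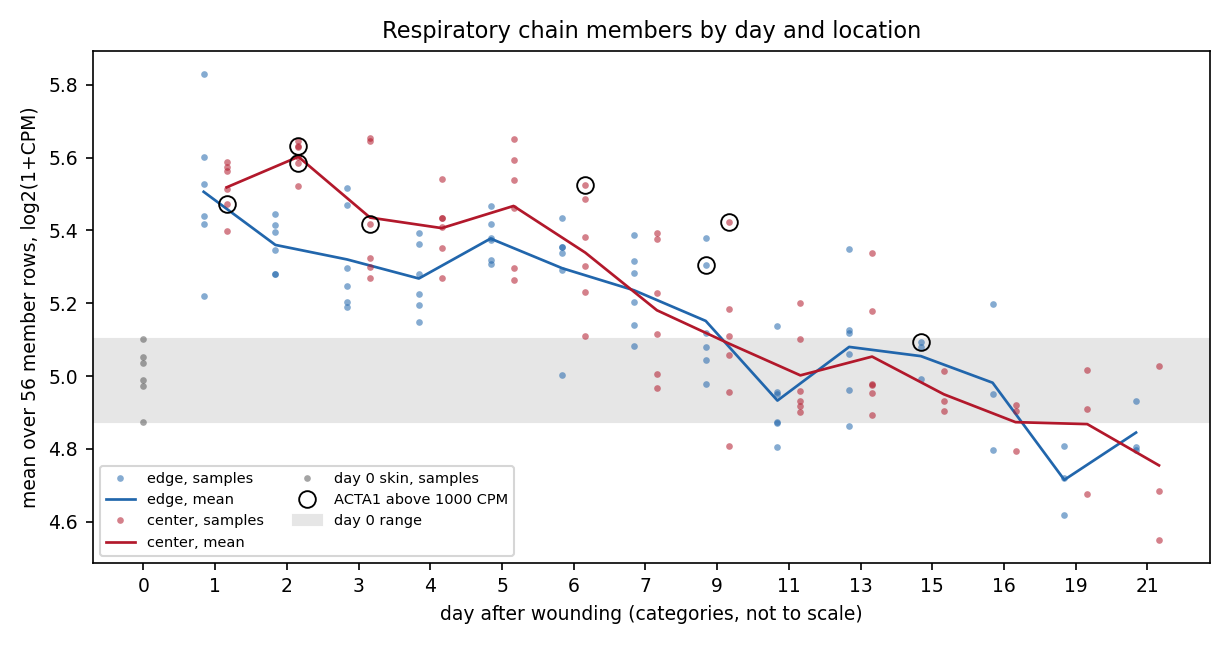
Mean log2(1 + CPM) of the 56 measured respiratory chain rows (vertical axis) by day after wounding (horizontal axis, as categories). Points are samples (blue edge, red center, grey day 0 skin), lines join the mean of each day, the grey band is the day 0 range of 4.87 to 5.10, and circles mark the 8 samples with ACTA1 above 1000 CPM; center samples of day 2 sit at 5.52 or higher and the edge mean of day 19 falls to 4.72.

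Each animal was also set against its own day 0 skin. In the center on days 1 to 3 the members lay higher by 0.53 ± 0.14 (SD, n = 6 animals), in 6 of 6 animals, and on days 4 to 7 by 0.34 ± 0.11, in 6 of 6. The difference was 0.032 ± 0.13 on days 9 to 13, with 3 of 6 animals above 0, and -0.14 ± 0.14 on days 15 to 21, with 1 of 6 above. At the edge it was 0.38 ± 0.085 and 0.29 ± 0.097 in the earliest windows, in 6 of 6 animals each, and then 0.020 ± 0.21 (2 of 6) and -0.11 ± 0.076 (1 of 6). The late values depended on the scaling, since with TMM-normalized CPM the difference from the day 0 mean on days 15 to 21 was -0.0036 in the center and 0.039 at the edge. Taken as a share of all counts, the members rose from a day 0 median of 0.250% to 0.403% in the center on day 2 and were at 0.193% in the center on day 21.

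Single members were then tested in 15 comparisons with edgeR's quasi-likelihood test over 17916 genes, with Benjamini-Hochberg adjustment and a threshold of 0.05. The fold changes that follow are log2 values with their standard errors, and an adjusted p always refers to this test. The comparisons with day 0 all used the same 6 skin samples. Samples of 1 window include 2 wounds of an animal on the same day, so the p-values rest partly on repeated samples of 6 animals.

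In the center on days 1 to 3, 41 of 56 members were higher than in day 0 skin and 3 were lower, beside 33.6% of all tested genes higher and 33.2% lower. The members' median log2 fold change was 0.48 and that of all genes 0.011. On days 4 to 7, 36 members were higher and 4 lower, with a median of 0.36, while 34.3% of genes were higher and 36.9% lower. On days 9 to 13, 21 were higher and 5 lower, with a median of 0.17, beside 31.7% and 34.1% of genes. By days 15 to 21, 7 were higher and 6 lower, with a median of 0.031, against backgrounds of 26.5% and 30.2%. The later windows depended on the scaling. With library totals in place of TMM factors the split became 12 higher and 9 lower on days 9 to 13 and 3 higher and 14 lower on days 15 to 21, while the median of all genes moved to -0.11 and -0.20. With median-of-ratios factors the splits were 15 against 7 and 5 against 8, and with DESeq2 17 against 7 and 5 against 8. Without replicate 2 or 6, days 15 to 21 had 5 against 6 and 6 against 7. No sample of days 15 to 21 is replicate 6, so leaving it out removed day 0 skin and samples of other windows only. With the animal as a replicate block that window had 7 against 8, without the samples with muscle RNA 7 against 9, and with the wounds of an animal summed 13 against 10.

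The edge followed the same order of windows. On days 1 to 3, 37 members were higher than day 0 skin and 2 lower, with a median of 0.39, where 24.9% of genes were higher and 23.9% lower. Days 4 to 7 had 34 higher and 3 lower, with a median of 0.34, beside 28.4% and 28.1% of genes. Days 9 to 13 had 28 higher and 2 lower, with a median of 0.26, beside 25% and 21%. On days 15 to 21, 3 were higher and 2 lower, with a median of 0.056, beside 18.1% and 16.6%. The 5 calls of the last window became 2 without replicate 1, 3 without replicate 6, 9 in a fit of the samples compared alone and 13 with the wounds of an animal summed. The last window holds no replicate 6, so leaving it out removed day 0 skin and samples of other windows only. On library totals the splits were 8 against 5 on days 9 to 13, with the median of all genes at -0.12, and 0 against 7 on days 15 to 21, with that median at -0.19. In the last window at the edge, 6 were higher and 2 lower without the 5 samples that went against their location, which that window does not hold.

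**Figure D2:**
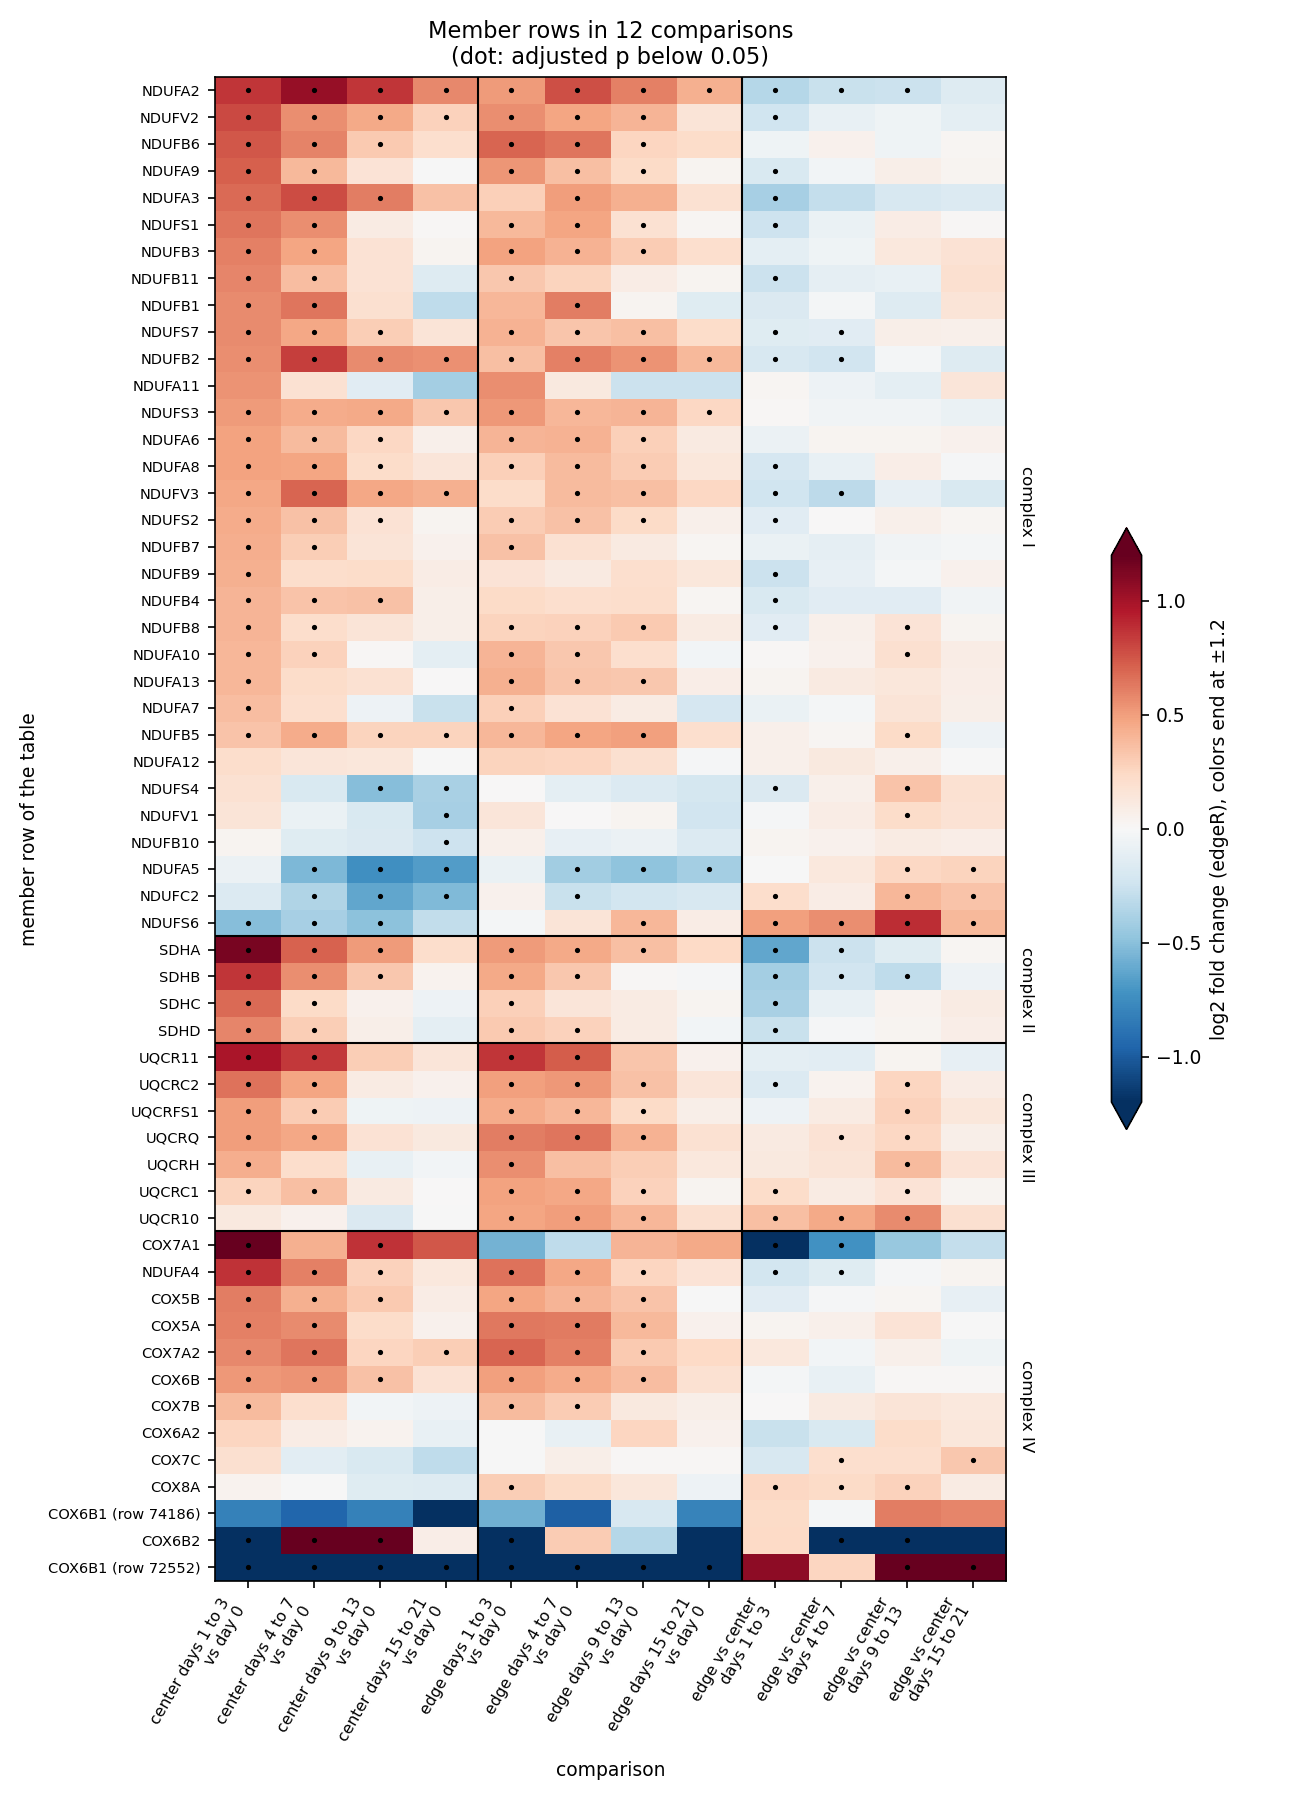
Log2 fold changes (color, ending at ±1.2) of the 56 member rows (vertical axis, grouped by complex) in 12 comparisons (horizontal axis): center and edge windows against day 0, and edge against center. Dots mark adjusted p below 0.05; the early columns are mostly red (41 members higher in the center on days 1 to 3), the columns of days 15 to 21 are pale, and NDUFS6, NDUFA5, NDUFC2, NDUFS4 and NDUFV1 hold blue cells in the center columns.

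Complex I carries electrons through an arm that reaches into the matrix and ends in a membrane arm. In the center on days 1 to 3, 24 of its 32 members were higher and 1 was lower, with a median of 0.45, beside 33.6% and 33.2% of all genes. NDUFS1 (ENSSSCG00025069377), the large iron-sulfur subunit of the NADH-oxidizing module, had a lowest, median and highest value of 52.6, 61.2 and 65.0 CPM in day 0 skin and 72.8, 103 and 130 CPM in the center on days 1 to 3. The groups did not overlap, and the fold change was 0.64 ± 0.08 (adjusted p = 8.5e-12, higher in 6 of 6 animals). NDUFV2 (ENSSSCG00025064575), an iron-sulfur subunit of the same module, went from 26.7, 30.2 and 31.5 CPM to 44.2, 55.8 and 64.8 CPM, a change of 0.79 ± 0.08 (adjusted p = 4.1e-16). NDUFV1 (ENSSSCG00025077537), the flavoprotein that binds NADH, moved less, from a median of 63.8 to 77.8 CPM, with overlapping samples and a difference of 0.16 ± 0.09 that did not pass (adjusted p = 0.12). Its level was later lower by 0.40 ± 0.10 in the center on days 15 to 21 (adjusted p = 0.00017), with 0 of 6 animals above day 0. Whether these subunits of 1 module differed in their change was not tested.

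Among the accessory subunits of complex I, NDUFA2 (ENSSSCG00025052073), part of the matrix arm, led both the earliest window in the center, at 0.86, and the last. It lay at 12.9, 13.9 and 15.9 CPM (lowest, median and highest) in day 0 skin and at 21.5, 29.3 and 39.5 CPM in the center on days 4 to 7, a change of 1.04 ± 0.12 (adjusted p = 2.7e-13). It was still higher by 0.58 ± 0.13 in the center on days 15 to 21 (adjusted p = 4.8e-05), in 6 of 6 animals, with samples between 11.6 and 23.1 CPM that overlapped day 0. NDUFB2 (ENSSSCG00025028854), of the membrane arm, showed a like course, with medians of 20.8 CPM on day 0, 41.2 CPM in the center on days 4 to 7 and 28.2 CPM on days 15 to 21. Its last difference was 0.55 ± 0.13 (adjusted p = 0.00014, 6 of 6 animals). NDUFV3, NDUFS3, NDUFV2 and NDUFB5 were also still higher in the center on days 15 to 21, by 0.43, 0.33, 0.27 and 0.26. NDUFB6 (ENSSSCG00025066259) rose by 0.75 ± 0.11 in the center and 0.69 ± 0.11 at the edge on days 1 to 3 (adjusted p = 6.5e-10 and 2.8e-08), but its row carries a protein match to aprataxin, so it may not hold NDUFB6 alone.

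A few members of complex I ran the other way. NDUFA5 (ENSSSCG00025059524), an accessory subunit of the matrix arm, lay between 38.5 and 47.4 CPM in day 0 skin and between 20.4 and 40.2 CPM in the center on days 9 to 13, with medians of 44.6 and 24.3 CPM. It fell by 0.73 ± 0.12 in the center (adjusted p = 2.2e-08) and by 0.48 ± 0.12 at the edge (adjusted p = 0.00038) in that window, with 0 of 6 animals above day 0 at either location. NDUFC2 (ENSSSCG00025072953), of the membrane arm, fell by 0.62 ± 0.10 (adjusted p = 3.7e-08) and NDUFS4 (ENSSSCG00025022251), which helps to attach the NADH-oxidizing module, by 0.51 ± 0.10 (adjusted p = 3.2e-06) in the center in the same window, again in 6 of 6 animals. Day 0 medians were 42.2 CPM for NDUFC2 and 44.1 CPM for NDUFS4, against 25.04 and 28.2 CPM in the center on days 9 to 13.

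NDUFS6 (ENSSSCG00025037450), a zinc-binding subunit of the NADH-oxidizing module, split by location. In day 0 skin its lowest, median and highest values were 36.2, 49.1 and 57.6 CPM. The center had 24.9, 36.3 and 47.7 CPM on days 1 to 3 and 22.2, 31.0 and 47.5 CPM on days 9 to 13, lower than day 0 by 0.51 ± 0.15 and 0.50 ± 0.15 (adjusted p = 0.0022 and 0.003). The edge had 34.3, 55.2 and 75.5 CPM on days 9 to 13, higher than day 0 by 0.39 ± 0.16 (adjusted p = 0.037). Edge exceeded center in 14 of 18 wounds on days 1 to 3, in 23 of 24 on days 4 to 7 and in 18 of 18 on days 9 to 13. The edge against center difference was 0.49 ± 0.11, 0.55 and 0.89 ± 0.11 in these windows (adjusted p = 7.9e-05 in the earliest and 1.4e-11 in the last of them).

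**Figure D3:**
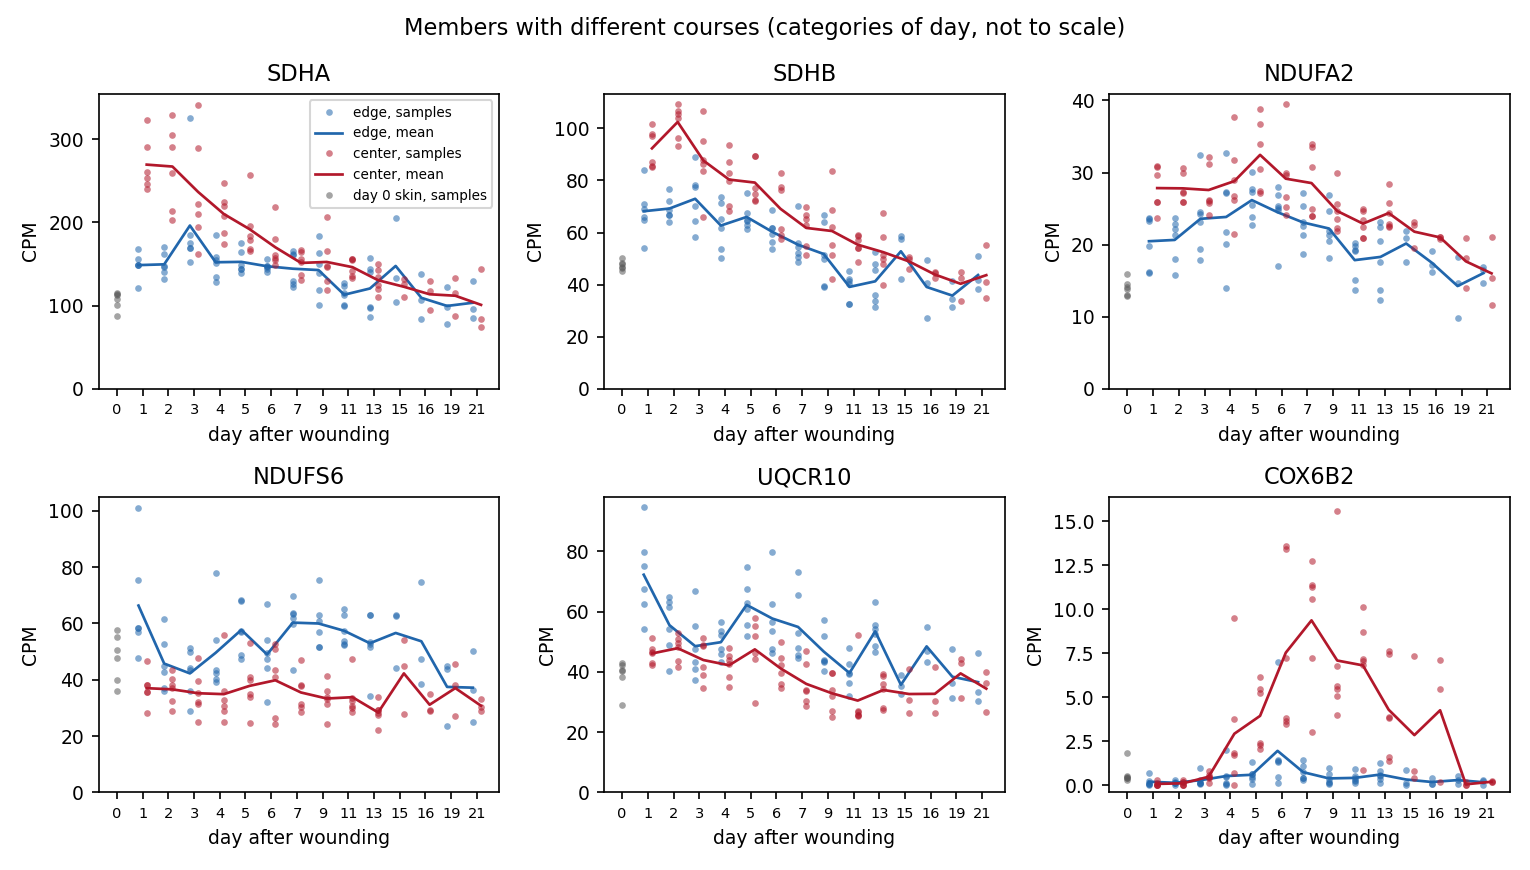
CPM of SDHA, SDHB, NDUFA2, NDUFS6, UQCR10 and COX6B2 (vertical axes) by day after wounding (horizontal axes, as categories). Points are samples (blue edge, red center, grey day 0 skin) and lines join daily means; SDHA and SDHB are highest in the early center, NDUFS6 and UQCR10 are higher at the edge, and COX6B2 reaches 15.6 CPM in the center on day 9 and is at 0.262 CPM or less there on days 19 and 21.

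Complex II had the highest median of the 4 complexes in the early center, with all 4 members higher on days 1 to 3 and a median of 0.77. Of all tested genes 33.6% were higher in that comparison. SDHA (ENSSSCG00025031010), the flavoprotein that oxidizes succinate, had 87.8, 111 and 115 CPM (lowest, median and highest) in day 0 skin and 162, 257 and 342 CPM in the center on days 1 to 3. The samples did not overlap, and the change was 1.14 ± 0.11 (adjusted p = 3.5e-16, 6 of 6 animals). SDHB, the iron-sulfur subunit, went from 45.2, 47.4 and 50.4 CPM to 65.9, 95.8 and 109 CPM, a change of 0.86 ± 0.10 (adjusted p = 3.6e-14). The membrane anchors SDHC (ENSSSCG00025004969) and SDHD changed by 0.68 ± 0.11 and 0.58 ± 0.07 (adjusted p = 2.1e-08 and 1.1e-11), SDHC from 75.7, 84.9 and 92.4 CPM to 111, 153 and 222 CPM.

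Complex II was also lower at the edge than in the center of the same wounds. On days 1 to 3 all 4 members were lower at the edge, SDHA by 0.63 ± 0.08, SDHB by 0.40 ± 0.06, SDHC by 0.39 ± 0.07 and SDHD by 0.27 ± 0.05 (adjusted p = 2.8e-12, 2.9e-08, 2.2e-06 and 2e-06). Of all genes 28.5% were lower at the edge in that comparison. SDHA, SDHB and SDHD were higher at the edge in 0 of 18 wounds and SDHC in 2 of 18. Without the samples with muscle RNA the values were -0.65, -0.35, -0.42 and -0.26, and without the samples that went against their location -0.73, -0.47, -0.48 and -0.34, each still past the threshold. SDHB kept a lower edge level on days 9 to 13, by 0.31 ± 0.06 (adjusted p = 1.8e-05), in 17 of 18 wounds. The mean of the complex over its 4 members was lower at the edge by 0.44 ± 0.23 on days 1 to 3 (SD, n = 18 wounds), in 18 of 18 wounds. Without the 3 wounds that held a sample against its location it was lower by 0.49 ± 0.21, in 15 of 15 wounds.

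In complex III, whose subunits hand electrons from ubiquinol to cytochrome c, 6 of 7 members were higher in the center and 7 of 7 at the edge on days 1 to 3. The shares of all genes were 33.6% and 24.9%. UQCR11 (ENSSSCG00025016932), a small accessory subunit, had the largest change, from a day 0 median of 15.8 CPM (12.5 to 19.4) to 33.9 CPM (24.8 to 40.7) in the center and 30.5 CPM (19.5 to 48.8) at the edge. It rose by 0.98 ± 0.15 and 0.86 ± 0.15 (adjusted p = 1.7e-08 and 1.3e-06). UQCRFS1 (ENSSSCG00025062155), the Rieske iron-sulfur protein, rose in the center by 0.51 ± 0.08 (adjusted p = 3.3e-08), from a median of 86.6 to 134 CPM, and the core protein UQCRC2 (ENSSSCG00025077623) by 0.65 ± 0.08 (adjusted p = 2.7e-12). Its partner UQCRC1 (ENSSSCG00025059210) rose by 0.26 ± 0.09 (adjusted p = 0.0076), and that call was lost without the samples with muscle RNA, at 0.14, and without replicate 4 or 6, at 0.16 and 0.20.

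Within wounds, the number of complex III members called at the edge varied by window. The change of the edge against center difference from days 1 to 3 to days 9 to 13 passed for 2 of its 7 members. Of all genes 15.9% passed in that direction, and UQCR10 and UQCRQ did not pass. On days 9 to 13, 6 of its 7 members were higher at the edge than in the center, beside 27.5% of all genes. UQCR10, a small subunit beside the Rieske protein, led with 32.0, 45.3 and 63.0 CPM (lowest, median and highest) at the edge and 25.1, 29.9 and 52.2 CPM in the center. The difference was 0.57 ± 0.09 (adjusted p = 3.8e-08), with the edge higher in 17 of 18 wounds. UQCRFS1 differed by 0.28 ± 0.06, UQCRC2 by 0.25 ± 0.05 and UQCRQ by 0.25 ± 0.07 (adjusted p = 8.8e-06, 3.1e-05 and 0.0023). UQCR10 was already past the threshold on days 1 to 3, when 2 members of complex III were higher at the edge and 1 lower. UQCR10 had also been higher at the edge on days 4 to 7, by 0.45 ± 0.08 (adjusted p = 3.7e-07, 21 of 24 wounds), and its early center level did not pass the test against day 0 (0.12 ± 0.13, adjusted p = 0.42). The mean of complex III was higher at the edge in 16 of 18 wounds on days 9 to 13, by 0.23 ± 0.22 (SD), while that of complex II was higher at the edge in 4 of 18. On days 1 to 3 the mean of complex III was higher at the edge in 8 of 18 wounds, and on days 15 to 21 in 6 of 12.

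**Figure D4:**
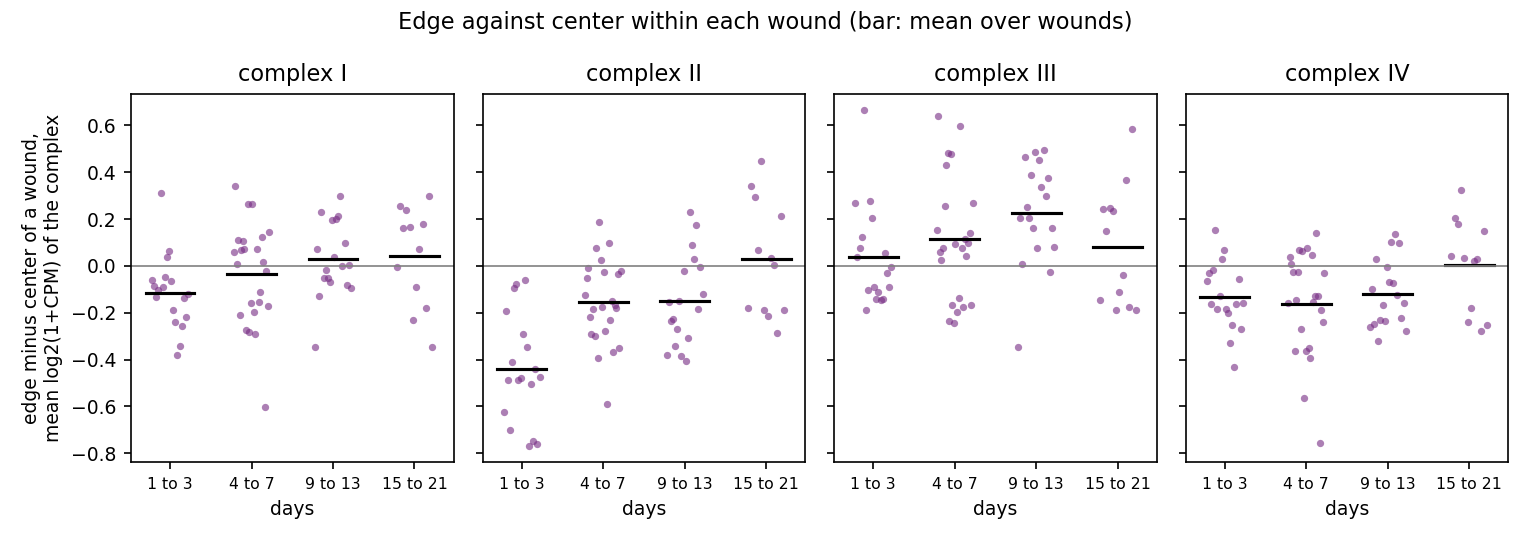
Edge minus center of the same wound in the mean log2(1 + CPM) of each complex (vertical axis), for 4 windows of days (horizontal axes). Points are wounds and bars their means; complex II lies below 0 in 18 of 18 wounds on days 1 to 3, and complex III above 0 in 16 of 18 on days 9 to 13.

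In complex IV, 7 of 13 members were higher and 2 lower in the center on days 1 to 3, and the same numbers were counted at the edge. The backgrounds were 33.6% higher and 33.2% lower in the center, and 24.9% and 23.9% at the edge. NDUFA4 rose most among the subunits used across tissues, from 58.7, 65.0 and 76.8 CPM (lowest, median and highest) to 106, 137 and 159 CPM in the center, without overlap, by 0.87 ± 0.11 (adjusted p = 1.1e-11). COX7A2, the form of subunit 7A found in most tissues, rose by 0.58 ± 0.12 in the center and 0.70 ± 0.12 at the edge (adjusted p = 1.1e-05 and 5.2e-07). COX8A, the member with the highest level per length, had medians of 139 CPM on day 0 and 165 CPM in the early center, with a difference of 0.05 ± 0.11 that did not pass (adjusted p = 0.72). The 2 low rows named COX6B1 were at most 1.84 CPM in any sample. Of these, ENSSSCG00025072552 had 0.187 to 1.84 CPM in day 0 skin and a median of 0.0211 CPM in the early center, and ENSSSCG00025074186 changed in none of the 15 comparisons. The row named COX6B (ENSSSCG00025051415) rose by 0.52 in the center on days 1 to 3.

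COX6B2 (ENSSSCG00025056759) is a form of subunit 6B best known from testis. COX6B2 lay at 0.327, 0.445 and 1.85 CPM (lowest, median and highest) in day 0 skin, and its highest value in the center on day 2 was 0.304 CPM. From day 4 it was seen in the center, with a median of 1.80 CPM for day 4, 3.83 and 5.52 CPM for the next days, and 10.9 CPM for day 7. Days 9 and 11 had 5.54 and 7.13 CPM. It had fallen again by day 19, where 2 of 3 center samples were at 0 CPM and the highest at 0.167 CPM. Its center level on days 1 to 3 was lower than in day 0 skin (-1.997 ± 0.63, adjusted p = 0.0034). The edge stayed at medians between 0.0694 and 1.35 CPM on all days, with 1 sample of day 6 at 7.02 CPM. Against day 0 the center was higher by 2.99 ± 0.69 on days 4 to 7 and 3.25 ± 0.71 on days 9 to 13 (adjusted p = 6.3e-05 and 2.8e-05), and the edge was below the center in 18 of 18 wounds on days 9 to 13, with a difference of -3.59 ± 0.45 (adjusted p = 1.2e-11). Counts behind these values reached 274 in a center sample and 29 in day 0 skin.

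Edge and center of the same day were compared in 4 windows. On days 1 to 3, 5 members were higher at the edge and 22 lower, beside 27.4% and 28.5% of all genes, and the members' median was -0.10. Without the samples with muscle RNA it was 6 higher and 11 lower, with a median of -0.032, and without replicate 2 it was 3 higher and 14 lower. On days 4 to 7, 5 were higher and 9 lower, beside 28% and 26.3%, a share below the background in both directions. On days 9 to 13, 16 were higher and 3 lower beside 27.5% and 25.6%, so the higher share lay near the background and the lower share below it, with a median of 0.067. The mean of all members was 0.0064 ± 0.15 higher at the edge in that window (SD, n = 18 wounds), in 8 of 18. On library totals this split was 13 against 6. On days 15 to 21, 5 members were higher and 0 lower by edgeR, beside 15.2% and 14.9% of genes, and 10 had an unadjusted p under 0.05. DESeq2 also gave 5 and 0, summed wounds 8 and 2, and 3, 1 and 3 members were called without replicate 1, 2 or 3. The 5 were NDUFS6, NDUFA5, NDUFC2, COX7C and the COX6B1 row ENSSSCG00025072552.

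Marker lists of other cell types moved with location. On days 1 to 3 all 11 tested keratinocyte rows were higher at the edge, with window means of 10.7 ± 2.2 at the edge and 4.11 ± 2.7 in the center (log2(1 + CPM), SD, n = 18). All 8 adipocyte rows and all 15 skeletal muscle rows were lower at the edge, as were 8 of 11 macrophage rows and 7 of 8 endothelial rows, while all 8 rows of hair follicle and sebaceous gland markers were higher there. Adipocyte medians were 5.89 at the edge, 8.25 in the center and 4.39 in day 0 skin. Macrophage means were 6.39 ± 0.75, 6.93 ± 0.49 and 4.43 ± 0.23, and those of neutrophils and monocytes 6.42 ± 0.65, 6.51 ± 0.60 and 2.39 ± 0.17. Endothelial means were 5.61 ± 0.64, 6.66 ± 0.42 and 5.14 ± 0.21. Of the other lists, neutrophil and monocyte markers had 3 of 11 rows higher and 6 lower at the edge, fibroblast markers 1 and 3 of 10, and erythrocyte markers 0 and 0 of 5. Their part in the members' differences was not tested.

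The decline was tested within each location. In the center 40 members were lower on days 9 to 13 than on days 1 to 3 and 1, COX6B2, was higher, beside 29% of genes lower and 25.3% higher, with a median of -0.33. NDUFS4 fell by 0.69 ± 0.07, SDHA by 0.63 ± 0.08, UQCRFS1 by 0.55 ± 0.06 and NDUFS1 by 0.54 ± 0.06 (adjusted p = 2.8e-15, 2.3e-12, 7.6e-16 and 7.1e-16). At the edge 25 members were lower and 3 higher (COX6B2, COX7A1 and NDUFS6), beside 22% and 22.4% of genes, with a median of -0.14. COX7A1 is a muscle form, and the late edge held muscle RNA in replicate 5 of day 9, with ACTA1 at 18907 CPM. COX7A1 was at 17.0 CPM in that sample, against 3.10 to 4.19 CPM in its companions. With the animal as a replicate block the edge count was 11 lower and 3 higher, and on library totals 45 lower and 2 higher. Without replicate 2, 3 or 6 the edge count was 15, 12 or 13 lower. On library totals the median of all genes itself moved to -0.24 in both locations. Markers of other cell types moved in the same comparisons. In the center 15 of 15 skeletal muscle rows (median -6.08) and 7 of 8 adipocyte rows (median -2.26) were lower on days 9 to 13, and 8 of 10 fibroblast rows were higher (median 1.296). Macrophage markers had 5 of 11 rows higher and 1 lower there, and neutrophil and monocyte markers 2 and 6 of 11. Keratinocyte markers had 3 and 2 of 11, hair follicle and sebaceous gland markers 0 and 3 of 8, and endothelial markers 1 and 0 of 8. At the edge 10 of 10 fibroblast rows (median 1.27) and 7 of 8 endothelial rows were higher, and 8 of 11 rows of neutrophils and monocytes were lower (median -1.40). Hair follicle and sebaceous gland markers had 7 of 8 rows lower there (median -3.82). Skeletal muscle markers had 6 of 15 rows higher and 0 lower (median 2.51). The median edge sample did not rise in muscle mean, from 0.690 early to 0.627 late (log2(1 + CPM)). In the center the median sample was at 0.835 and 0.717, with the highest samples at 11.4 and 10.5. The highest edge samples were at 3.25 and 10.9, so the muscle differences at both locations rest on a few samples. Macrophage markers had 3 of 11 rows higher and 5 lower, adipocyte markers 0 and 2 of 8, and keratinocyte markers 0 and 0 of 11. Their part in the decline was not tested.

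The edge against center difference changed between days 1 to 3 and days 9 to 13 for 18 members, toward the edge for 17 and toward the center for 1, beside 15.9% and 12.8% of genes. SDHA shifted toward the edge by 0.49 ± 0.11, UQCRC2 by 0.42 ± 0.08, NDUFS4 by 0.52 ± 0.10 and NDUFS1 by 0.34 ± 0.08 (adjusted p = 0.00019, 1e-05, 2.8e-05 and 0.00033). COX6B2 shifted toward the center by 3.83 ± 0.70 (adjusted p = 8.6e-06). The counts were 7 and 1 with the wounds of an animal summed, 9 and 1 with no filter on low counts, 11 and 1 without the samples with muscle RNA, and 9 and 1 without replicate 1 or 2.

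The muscle forms of complex IV were high in the samples with the most ACTA1. COX7A1 (ENSSSCG00025060856) and COX6A2 (ENSSSCG00025039043) are the forms of subunits 7A and 6A known from heart and skeletal muscle. The COX6A2 row was read from its protein match, had counts in all 150 samples and averaged 16.05 CPM. Whether it holds COX6A2 alone was not tested. In the center sample of replicate 2 on day 2, with ACTA1 at 32888 CPM, COX6A2 was at 61.2 CPM and COX7A1 at 30.0 CPM, against 16.1 to 17.7 CPM and 4.53 to 8.19 CPM in the 4 samples of that state with ACTA1 under 1000 CPM. In the center sample of replicate 5 on day 6, with ACTA1 at 22713 CPM, they were at 48.5 and 23.6 CPM against 12.4 to 19.7 and 1.62 to 4.40 CPM. Replicate 5 of day 9 had muscle RNA at both locations, with COX6A2 at 40.1 CPM at the edge and 40.6 CPM in the center. Each of these 4 samples lay above all its companions for both genes. So did the center samples of replicate 6 on day 2 and replicate 3 on day 3, with COX6A2 at 31.8 and 29.2 CPM. The edge sample of replicate 3 on day 15 did too, with COX6A2 at 18.7 CPM against at most 17.8 CPM in 2 companions. The center sample of replicate 6 on day 1, with ACTA1 at 5614 CPM, did not, with COX6A2 at 19.1 CPM among companions at 9.41 to 20.5 CPM.

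**Figure D5:**
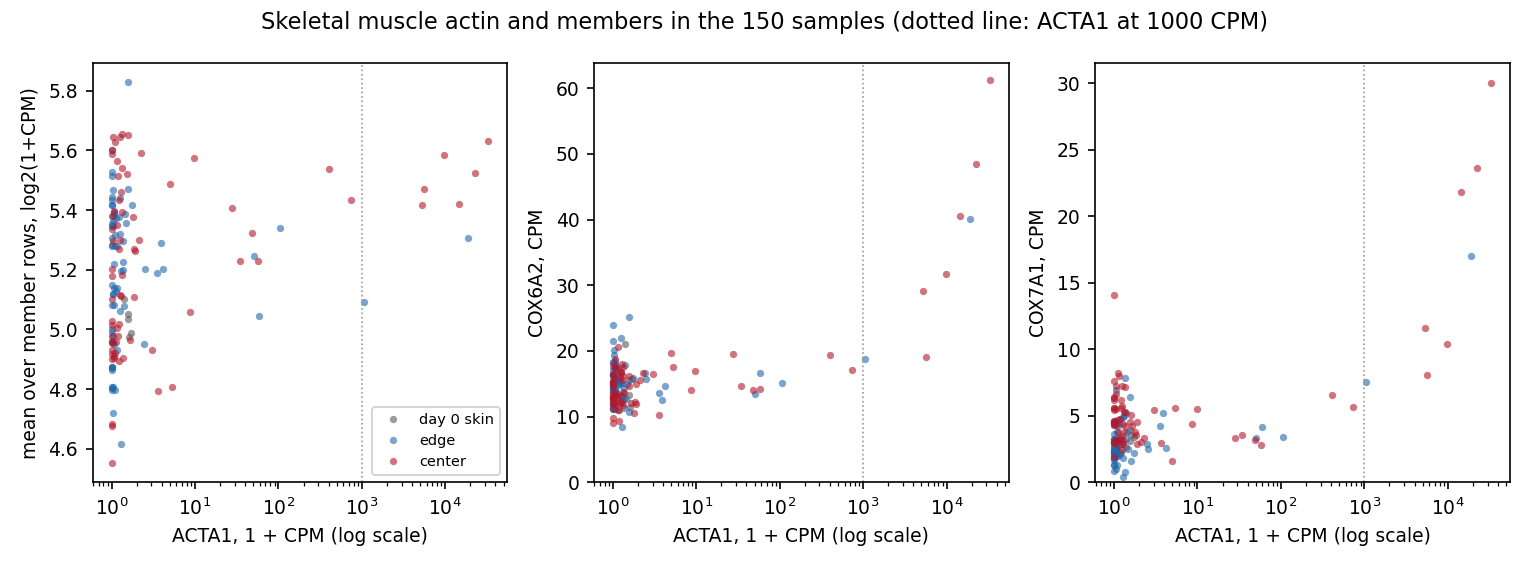
The mean of the 56 member rows (left, log2(1 + CPM)), COX6A2 (middle, CPM) and COX7A1 (right, CPM) against ACTA1 (horizontal axis, 1 + CPM on a log scale) in 150 samples. Points are samples by location and the dotted line marks ACTA1 at 1000 CPM; COX6A2 and COX7A1 reach 61.2 and 30.0 CPM in the sample with the most ACTA1, while the member mean of the 8 samples to the right of the line stays within 5.09 and 5.63.

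The mean of all members showed smaller gaps. Of the 8 samples with ACTA1 above 1000 CPM, the day 2 samples lay at 5.63 and 5.58 among companions between 5.52 and 5.65, and the day 6 and day 9 center samples at 5.52 and 5.42 above companions of at most 5.49 and 5.18. SDHA in the day 2 sample with the most ACTA1 was 203 CPM, below its companions at 214 to 329 CPM, but in the center samples of day 6 and day 9 it was 219 and 207 CPM, above companions of at most 180 and 166 CPM. COX7A1 was higher in the center on days 1 to 3 than in day 0 skin by 1.24 ± 0.37 (adjusted p = 0.0018, 6 of 6 animals) and still by 0.83, past the threshold, without the 23 samples with muscle RNA. Its edge against center difference of -1.81 ± 0.25 on those days (adjusted p = 3.4e-10, edge lower in 16 of 18 wounds) became -1.40. Its higher level in the center on days 9 to 13, 0.86 ± 0.36 (adjusted p = 0.028), was 0.52 and no longer past the threshold without them, nor without replicate 5 (0.58) or 6 (0.88). COX6A2 passed the test in 1 comparison, the change of the edge against center difference (0.49 ± 0.19, adjusted p = 0.047), and lost it in 11 of the 15 alternatives, at 0.20 without the muscle samples.

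Other genes of oxidative metabolism were counted from fixed lists. Their counts for the center on days 1 to 3 stand beside the same backgrounds of 33.6% of genes higher and 33.2% lower. In the center on days 1 to 3, 15 of 17 ATP synthase subunits were higher and the others did not pass, with a median of 0.57. By days 15 to 21, 3 were higher and 1 lower in the center, beside 26.5% and 30.2% of genes. ATP5MC1, which forms part of the rotor ring, rose by 1.04 ± 0.13 (adjusted p = 4.7e-12) and ATP5F1A, of the catalytic head, by 0.84 ± 0.09 (adjusted p = 2.3e-15). All 17 rows of tricarboxylic acid cycle enzymes were higher, with a median of 0.71. On the same days 15 of them were lower at the edge than in the center, beside 28.5% of genes. DLAT and PDHA1, of the pyruvate dehydrogenase complex that feeds the cycle, rose by 1.56 ± 0.12 and 1.26 ± 0.11 (adjusted p = 6e-22 and 1.2e-19). Of 14 fatty acid oxidation enzymes, 8 were higher and the others did not pass, with ACADM at 1.46 ± 0.12 (adjusted p = 1.5e-21). CPT1B, the muscle form of the enzyme that admits fatty acids to mitochondria, was higher by 1.78 ± 0.34 (adjusted p = 1.8e-06), and by 1.26 ± 0.27 without the samples with muscle RNA (adjusted p = 1.9e-05), in a window where all 15 skeletal muscle rows were also higher.

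Of 18 enzymes and transporters of glycolysis, 11 were higher and 2 lower in the center on days 1 to 3 and 11 higher and 1 lower on days 9 to 13, with medians of 0.49 and 0.64. In the later of these windows 31.7% of all genes were higher and 34.1% lower. On days 15 to 21, 6 were higher and 2 lower, with a median of 0.27. The backgrounds were 26.5% higher and 30.2% lower, so the higher share lay near that of all genes. Between days 1 to 3 and days 9 to 13, 5 rose and 4 fell in the center, shares near the backgrounds of 25.3% and 29%, while 12 of 17 ATP synthase subunits and 14 of 17 rows of the cycle fell. Whether the lists differed was not tested. SLC16A3, a lactate exporter, was higher by 3.57 ± 0.49 and GAPDH by 2.02 ± 0.42 in the early center (adjusted p = 2.3e-10 and 1.5e-05).

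Assembly factors and regulators were mixed. Of 15 complex I assembly factors 11 were higher and 1 lower in the center on days 1 to 3. In the center 13 were lower on days 9 to 13 than on days 1 to 3, beside 29% of all genes. NDUFAF4 rose by 1.34 ± 0.16 and TMEM186 by 1.39 ± 0.14 (adjusted p = 1.5e-12 and 1.7e-15). Of 19 assembly factor rows for complexes II, III and IV, 10 were higher and 3 lower. COX17, a copper chaperone, rose by 1.04 ± 0.17 (adjusted p = 1.9e-08), while the 3 rows named COX10, an enzyme of heme A synthesis, did not move together (0.39, 0.55 and -2.46, each past the threshold). Of 14 regulators of mitochondrial biogenesis 5 were higher and 4 lower, both close to the share of all genes. PPARGC1A, the coactivator best known for this role, had medians of 1.66 CPM on day 0 and 0.440 CPM in the center on days 1 to 3 and fell by 1.99 ± 0.45 (adjusted p = 5.9e-05), while TFAM, which packages mitochondrial DNA, rose by 0.27. NRF1 was lower by 0.22 and ESRRA had a difference of 0.26 that did not pass. Of the list of mitochondrially encoded subunits, 2 rows were tested, and both lie on nuclear contigs as a noncoding RNA and a pseudogene, so the mitochondrial genome's own subunits are not described here.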

How the data were processed

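RNA was extracted from whole biopsies with a kit for fibrous tissue, selected by poly-A and sequenced as read pairs. The authors deposited raw counts per gene, which are not normalized, and FPKM values, which they scaled to gene length and depth. The aligner, the counting tool, the genome build and the strand setting are not given in the sources used here, so reads of copies and overlapping genes cannot be assigned with certainty. All columns belonged to the 150 samples.

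Groups came from the labels. Levels are CPM on the library totals (13133379 to 24895572 counts), on the log2 scale with a pseudocount of 1, and FPKM served only to set genes side by side. The standard errors of the fold changes came from the quasi-likelihood test, so they cover the spread between samples as well as counting error. Counts were fitted with edgeR 4.0.16 (R 4.3.3, limma 3.58.1, TMM factors, filterByExpr at min.count 10 and min.total.count 15) in 1 model with a term for each of 29 states. Contrasts averaged the states of a window, and p-values were adjusted over 17916 genes. Wounds of 1 animal are not independent animals. The steps were tested on simulated data. Tables and plots were made in Python 3.11.15 with numpy 2.4.6, pandas 2.3.3 and matplotlib 3.10.9.

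Edge and center samples of 1 wound are paired by their labels. Over the 72 wounds their deviations from the state means correlated with a mean r of 0.26, above 0.1 in 58. Alternatives were DESeq2 1.42.0, other factors, no filter, fewer samples, summed wounds, and a replicate block, which was the animal for comparisons over time or with day 0 and the wound for edge against center.

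The members and lists were chosen with earlier results of these data known. Named members were up to 3 with the largest and up to 3 with the smallest fold change past the threshold in each comparison, the 2 with the highest mean FPKM of each complex, complex II, catalytic core subunits and tissue isoforms. NDUFV2, UQCRC2, COX6B and COX7C were named after their values were seen. Outside the members, up to 3 genes per list with the largest change, ACTA1 and a few regulators were named.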

Additional observations from a re-analysis of the deposited data

Results flagged for a closer look

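Among the 21 states of 6 samples, 1 held a sample whose mean over the members stood far from the others. In the day 6 edge state, replicate 5 was lowest at 5.00 while the others lay between 5.29 and 5.43 (gap over range 0.666, above Dixon's critical value). Chance flags about 1 in 20 states, or 1.05 here.

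The difference between edge and center was not the same on days 9 to 13 as on days 1 to 3 for 18 members (edgeR, interaction contrast, adjusted p under 0.05). The shift was 1.36 for COX7A1, 0.52 for NDUFS4, 0.49 for COX6A2 and -3.83 for COX6B2 (log2, edge minus center, late minus early). Skeletal muscle markers shifted in the same contrast, with 11 of 15 rows higher, and without the samples with muscle RNA COX7A1 shifted by 0.99 and COX6A2 by 0.20.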

How the results depend on the processing

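Of 225 alternatives of the member counts, 193 stayed within 1.5 times the count reported and kept the leading direction, 24 moved further and 8 turned the direction. The direction turned in the center on days 15 to 21, where 13 members were called (7 higher). There DESeq2 and median-of-ratios factors called 13 (5 higher), library totals 17 (3 higher), the replicate block 15 (7 higher) and the fit without muscle samples 16 (7 higher), while summed wounds called 23. Leaving out replicate 2 or 6 also turned it, with 11 (5 higher) and 13 (6 higher), although no sample of days 15 to 21 is replicate 6. At the edge on days 15 to 21 (5 called) it turned with library totals, to 7, all lower. There the samples compared alone gave 9, summed wounds 13 and the fit without the 5 samples against their location, chosen after the data were seen, 8. Library totals gave 13 at the edge on days 9 to 13 (30 called) and 47 for the edge over time (28 called), where the replicate block gave 14. Edge against center on days 1 to 3 (27 called) fell to 17 with no filter, with summed wounds and without muscle samples. Edge against center on days 15 to 21 (5 called) gave 10 with summed wounds. The change of that difference (18 called) gave 10 with no filter and 8 with summed wounds. The cause of these moves was not tested. The replicate block moved no other count by more than 1.5 times.

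Leaving out each replicate number in turn gave 42 to 43, 37 to 42, 21 to 31 and 11 to 14 calls in the center windows and 30 to 39, 33 to 36, 20 to 27 and 2 to 7 in the edge windows. Edge against center gave 17 to 27, 10 to 15, 16 to 20 and 1 to 5, the time comparisons 31 to 41 (center) and 16 to 28 (edge), and the change of the difference 10 to 19.

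Of the mean levels against day 0, 51 alternatives moved by less than the pooled SD of 0.139 and 5 by more. In the center on days 1 to 3 the difference of 0.51 became 0.33 on FPKM and 0.37 over all member rows, and at the edge 0.39 became 0.23 on FPKM. On days 15 to 21, TMM-normalized CPM gave -0.0036 in the center (-0.14 reported) and 0.039 at the edge (-0.11 reported). Of 2753 alternatives for named genes, 221 lost the threshold and 0 changed sign. All these results had passed the threshold in the main fit, and many were picked for a large fold change. A change of sign was therefore unlikely from the start. Depth limits the rows with few counts, COX6B1 and COX6B2 above all, and 6 animals with shared day 0 samples limit every comparison with skin.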

Other observations

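Close relatives of the members outside the symbol rule had some of the largest differences. NDUFA4L2 (ENSSSCG00025017456), a relative of NDUFA4 known to be induced by low oxygen, had 245, 372 and 521 CPM (lowest, median and highest) in day 0 skin. In the center its median was 20.6 CPM on days 1 to 3, 16.7 CPM on days 4 to 7 and 25.7 CPM on days 9 to 13, and at the edge 204, 260 and 295 CPM. It was lower in the center than in day 0 skin by 3.76 ± 0.34 on days 1 to 3 (log2, adjusted p = 1.4e-18 by edgeR), and higher at the edge than in the center by 2.76 ± 0.28 in that window (adjusted p = 2.3e-15). NDUFAB1, the acyl carrier protein of complex I, rose in the early center instead, by 1.18 ± 0.11 (adjusted p = 1e-18), from a median of 42.4 to 101 CPM.

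Complex IV subunit 4 has 2 forms outside the rule, and neither passed the test in the center on days 1 to 3. COX4I1, the common form, had medians of 39.6 CPM in day 0 skin and 53.0 CPM in the center on days 1 to 3, and its difference was 0.25 (adjusted p = 0.25). COX4I2 was at 1.38 and 1.42 CPM in the same groups, was higher in the center than in day 0 skin by 0.70 ± 0.32 on days 9 to 13 (adjusted p = 0.046), and was lower at the edge than in the center by 1.17 ± 0.23 on days 1 to 3 (adjusted p = 4.4e-06). COX7A2L, which helps to join complexes III and IV, fell by 0.50 ± 0.08 in the early center (adjusted p = 2.7e-08).

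Cytochrome c, the carrier between complexes III and IV, had 3 tested rows named CYCS that did not move together. In the center on days 1 to 3, ENSSSCG00025012632 had 89.2 to 183 CPM against 32.0 to 57.7 CPM in day 0 skin, higher by 1.44 ± 0.18 (adjusted p = 4.2e-12). ENSSSCG00025073189 had 1.201 to 7.54 CPM against 22.0 to 30.8 CPM, lower by 3.40 ± 0.21 (adjusted p = 6.2e-30), and ENSSSCG00025077202 was lower by 0.74 ± 0.12 (adjusted p = 4.1e-08). Rows that share a symbol may share reads, and how such reads were assigned is not given in the sources used here.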
